A study of Mus musculus with 6 samples.

Results

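The genes described here encode the renin-angiotensin system, kininogen, adrenomedullin and its receptor partners, in adrenal glands of the mouse strains BPH and BPL. A probe set, a group of short oligonucleotides that queries 1 transcript, was included when the annotation of the MG_U74Av2 array named exactly 1 gene for it and that gene was Ren1, Agt, Ace, Agtr1a, Agtr1b, Agtr2, Kng1, Adm, Ramp2 or Ramp3. The rule found 10 probe sets of 7 genes, out of 12488 probe sets in all and 8252 genes named singly. Ren1, Agtr1a and Agtr1b, 3 of the 10 genes, were not analysed here. Ace had 3 probe sets, Agtr2 had 2, and Agt, Kng1, Adm, Ramp2 and Ramp3 had 1 each.

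BPH is a hypertensive strain ("Blood Pressure High") and BPL a hypotensive strain ("Blood Pressure Low"). Total RNA of adrenal glands was hybridised to 3 arrays per strain, and the labels name no treatment, age or sex. The labels number the arrays as replicates without saying whether they came from separate mice, so the p-values measure only the spread between these samples. The comparison asks which transcripts of the gland differ between the strains.

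Renin cuts angiotensinogen to angiotensin I, and angiotensin-converting enzyme turns that into angiotensin II, which acts through type 1 and type 2 receptors and drives aldosterone secretion by the adrenal cortex. The same enzyme breaks down bradykinin, the vasodilator peptide released from kininogen. Adrenomedullin, a vasodilator peptide first found in a tumour of chromaffin cells, signals through a receptor whose specificity is set by the RAMP membrane proteins.

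Values are given as deposited intensities, which are linear. Because probe sets differ in how well they hybridise, each was placed by its percentile among the 12422 probe sets of the same array that are not controls, and the level of a probe set was not set against that of another. An intensity of 201.3, the 20th percentile of the whole table, served as a floor before values were taken to log2. Probe sets with a mean log2 value under the table's 40th percentile, an intensity of 668.1, were not tested, which left 7293. Each difference is the mean log2 value of BPH minus that of BPL, with adjusted p-values from limma over all tested probe sets.

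The labelled tissue was borne out by its markers. The steroid synthesis genes Star, Cyp11a1, Cyp21a1 and Hsd3b1 had a probe set at a median percentile of 99.8 or above, and the catecholamine enzyme genes Th and Pnmt at 97.5 and 98.2. Fat markers were bright too, with Adipoq at 99.5, the brighter Lpl probe set at 99.1 and the brown fat marker Cidea at 98.1. Summed general fat markers ran from 185078 to 224666 in BPH and from 163898 to 277936 in BPL. Arrays BPH 1 and BPL 2 carried skeletal muscle transcripts, with summed marker intensities of 186761 on BPH 1 and 195833 on BPL 2, against 11755 to 28397 on the other arrays. Fluidics station 1 held BPH 3 and all 3 BPL arrays, and station 2 held BPH 1 and BPH 2. Less RNA per cell and fewer cells of a type cannot be told apart in whole glands.

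None of the 5 probe sets of these genes that passed the filter was called at an adjusted p under 0.05, where 2.52% of all tested probe sets were called (184 of 7293), 1.56% higher in BPH and 0.96% lower in BPH. At an unadjusted p under 0.05 in limma there were 2 of the 5, against 19.3% of all tested probe sets. The 5 were those of Kng1, Ramp2, Ramp3, Agtr2 and Adm, which stood in the middle or upper part of their arrays. The other 5, all 3 of Ace, that of Agt and the second of Agtr2, stood under the filter.

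**Figure D1:**
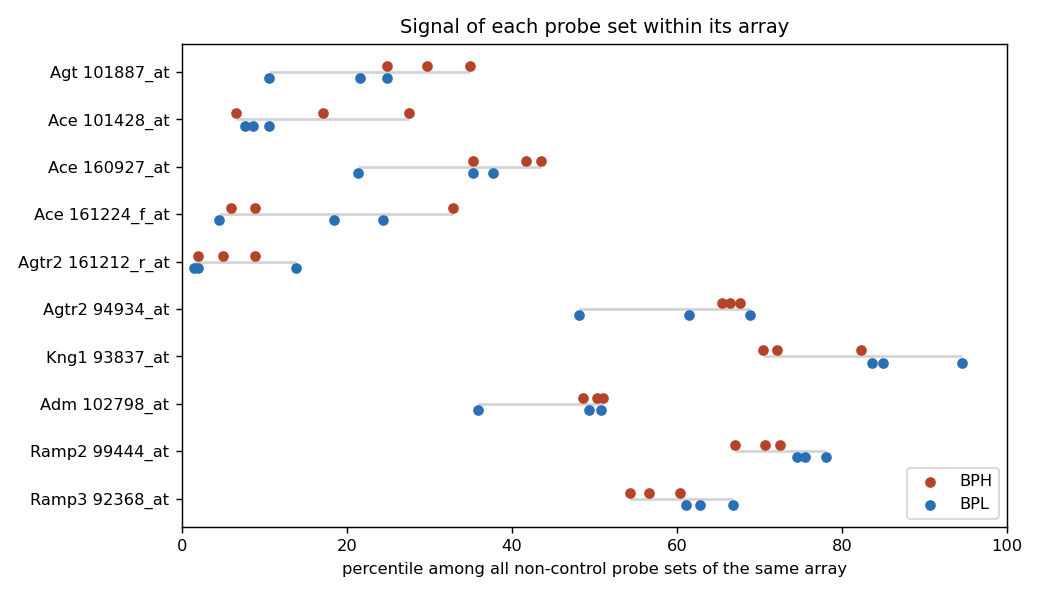
Percentile of each probe set among the non-control probe sets of the same array (horizontal axis, 0 to 100), for 3 BPH arrays (red) and 3 BPL arrays (blue), with a grey line over the range. The Agt and Ace probe sets lie between the percentiles 4.5 and 43.5, and Kng1 between 70.4 and 94.6.

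As a sequence feature that the choice of genes did not use, the 50 bases before each annotated start are shown for the genes with a probe set and an entry in the RefSeq promoter table (GRCm38.p6). Each is printed 5′ to 3′ on the gene's strand in lower case, with the motif TATAA in capitals.
Agt (chr8:124569707-124569756, minus strand): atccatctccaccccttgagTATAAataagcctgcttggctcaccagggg
Ace, first start (chr11:105967898-105967947, plus strand): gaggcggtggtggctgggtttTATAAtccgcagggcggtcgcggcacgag
Ace, second start (chr11:105975139-105975188, plus strand): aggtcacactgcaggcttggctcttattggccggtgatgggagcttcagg
Agtr2 (chrX:21484574-21484623, plus strand): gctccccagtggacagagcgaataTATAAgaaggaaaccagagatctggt
Adm (chr7:110627607-110627656, plus strand): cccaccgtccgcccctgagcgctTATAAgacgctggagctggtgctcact
Ramp3 (chr11:6658483-6658532, plus strand): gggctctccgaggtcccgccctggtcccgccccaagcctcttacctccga

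The table held 8 entries for 7 of the 10 genes, with Ren1 and Agtr1b among them. Of these, 6 held TATAA on the gene's strand, at 26 to 31 bases before the start, the entries of Ren1 and Agtr1b included. Of all 32845 entries 4.93% held it in the same window, and 6.36% held it on either strand, where the reverse motif TTATA can overlap it. The second Ace start and Ramp3 held it on neither strand. A match of letters is a description and does not show that the sequence is used.

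Agt encodes angiotensinogen, the only precursor of the angiotensin peptides. Its probe set had intensities of 451, 277 and 393 on BPH 1, 2 and 3, and of 108, 293 and 229 on BPL 1, 2 and 3. BPH 1 and BPH 3 stood above every BPL array, BPH 2 lay within the BPL range, and BPL 1 lay below the floor. The signal lay between the percentiles 10.5 and 34.9 of the arrays. In a fit without the filter, where 0.419% of 12422 probe sets were called and 13.6% had an unadjusted p under 0.05, the log2 difference was 0.62 (SE 0.24, 95% interval -0.0026 to 1.24, limma adjusted p = 0.369). The floor understates this value, since 1 BPL array lay under it.

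Ace encodes angiotensin-converting enzyme. The brightest of its 3 probe sets had intensities of 728, 523 and 757 in BPH and of 621, 232 and 523 in BPL. The low BPL value was that of BPL 2, and the other 2 BPL arrays lay within the BPH range. The log2 difference without the filter was 0.64 (SE 0.44, 95% interval -0.50 to 1.79, limma adjusted p = 0.613), and 0.21 when BPL 2 was left out as well. Another had 48.7, 152 and 348 in BPH and 89.2, 107 and 74.6 in BPL, so that only BPH 3 stood above the floor. The third had 66.1, 53.8 and 476 in BPH and 56.7, 286 and 181 in BPL, with only BPH 3 and BPL 2 above the floor. No difference is given for these 2 probe sets because most of their arrays have no measured order.

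**Figure D2:**
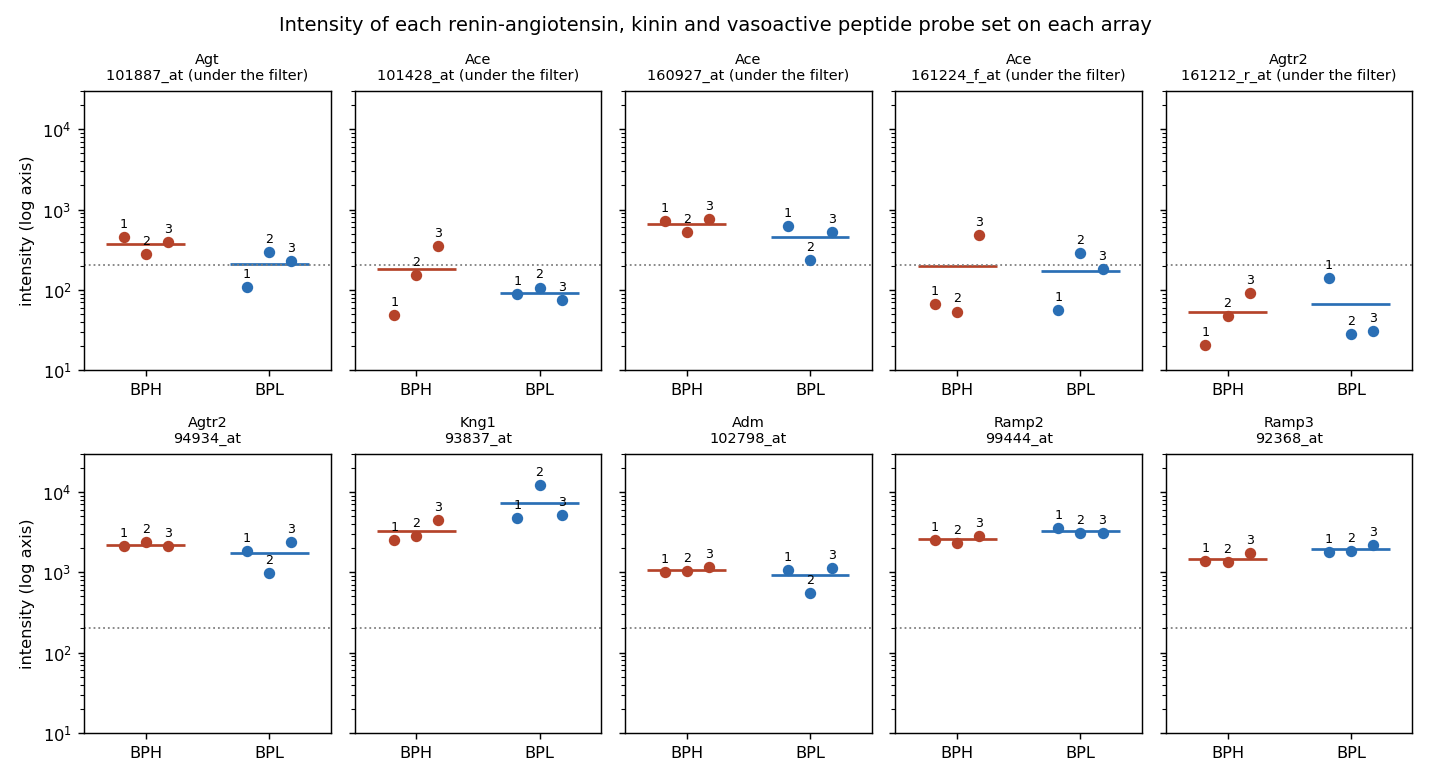
Intensity (log axis) of the 10 probe sets on 3 BPH arrays (red, left) and 3 BPL arrays (blue, right), with array numbers, group means as bars and the floor of 201.3 as a dotted line. BPL 2 is the highest array for Kng1 and the lowest for the brighter Agtr2 probe set, Adm and the brightest Ace probe set.

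Agtr2 encodes the type 2 angiotensin receptor, which in the rat is the main angiotensin receptor of the adrenal medulla. The brighter of its 2 probe sets had intensities of 2134, 2355 and 2149.8 in BPH and of 1816, 990.1 and 2389 in BPL. The BPH arrays lay close together, while the BPL arrays reached both above and below them. The means were 2213 ± 123 in BPH and 1732 ± 703 in BPL (SD, n = 3 each), at percentiles of 48.1 to 68.9. The log2 difference was 0.44 (SE 0.29, 95% interval -0.22 to 1.10, limma adjusted p = 0.438). Within station 1, with BPH 3 alone against the BPL arrays, and with the station as a block, it was 0.40. Without BPL 2 it was 0.09, and 0.72 without BPL 3. The other probe set lay below the floor on all 6 arrays, between 20.8 and 90.7 in BPH and between 28.2 and 142 in BPL, and gave no difference.

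Mean log2 values of the medulla markers deviated in the same direction as this receptor on each of the 6 arrays. The deviations from the mean of the 6 arrays were largest on BPL 2, at -0.99 for the markers and -0.94 for the receptor. BPL 2 was also the highest array in skeletal muscle (2.42) and brown fat markers (1.40). Within BPH the order differed, since BPH 2 was the highest for the receptor (0.31) and the lowest for the medulla markers (0.11). The summed intensity of the 7 measured medulla markers, of 11 listed, ran from 223932 to 271764 in BPH and from 122853 to 233779 in BPL, with BPL 2 the lowest. None of these markers was below the floor on every array, and of 8 tested probe sets none was called, 7 being positive with a median of 0.74. BPL 2 was the lowest of the 6 arrays for 29.6% of all tested probe sets. The part of the medulla in the receptor's values was not tested.

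Kng1 encodes kininogen, the precursor of bradykinin, which is made chiefly by the liver. Its intensities were 2524, 2832 and 4507 in BPH and 4748, 12049.6 and 5179 in BPL. All 3 BPH arrays lay below the BPL arrays, but BPH 3 came close to BPL 1. The means were 3288 ± 1067 in BPH and 7326 ± 4097 in BPL (SD, n = 3 each), at percentiles of 70.4 to 94.6. The difference on the log2 scale was -1.07 (SE 0.35, 95% interval -1.87 to -0.27, limma adjusted p = 0.148), which corresponds to 0.477 times the BPL level and was not called. It was -0.56 within station 1 and with the station as a block, and -0.64 without BPL 2. It was -0.47 without BPH 1 and BPL 2, an alternative chosen after seeing the data.

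The summed liver markers overlapped between the strains. The 10 measured of 11 summed to between 2975 and 3912 in BPH and between 3261 and 3904 in BPL, and Fgb, Ambp and Apoh were below the floor on all 6 arrays. Of the 2 liver genes tested, Alb, which encodes serum albumin, averaged 979.9 in BPH and 808 in BPL, and Cps1 777 and 775. Under the filter single genes differed in direction. Tat (218 in BPH and 410 in BPL) and Apoa1 (171 and 261) were highest on BPL 2. Ttr averaged 284 and 308, Ahsg 297 and 245, and the brighter Apoa2 probe set 689 and 651. The brown fat markers had a strain gap of the same sign as Kng1 and were likewise highest on BPL 2. All 8 were measured, and they summed to between 39382 and 67800 in BPH and between 103535 and 307362 in BPL. Within the strains the order differed. BPH 1 had the highest brown fat sum in BPH and the lowest Kng1 intensity. BPL 1 had a higher sum than BPL 3 (145848 and 103535) but a lower Kng1 intensity. Of the 8 tested brown fat probe sets all were negative, with 2 called, both of the brown fat uncoupling protein gene Ucp1, and a median of -1.36. BPL 2 was the highest array for 20.4% of all tested probe sets. The part of liver or brown fat in the Kng1 values was not tested. Mouse Kng2 is a near-identical copy of Kng1, so the probe set may not tell them apart.

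The genes with the pattern most like that of Kng1 over the 6 arrays, by Pearson's correlation of log2 values across all tested single-gene probe sets, were Golm1 (r = 0.995), Lama4 (r = 0.992) and Tmem150a (r = 0.986). Golm1 encodes a Golgi membrane protein and Lama4 a laminin chain of basement membranes. These were the 3 highest values of r in that search, over few arrays, and each of the 3 genes was highest on BPL 2. On the 4 arrays left after the 2 farthest from the Kng1 median were removed, r was 0.991, 0.978 and 0.924 in the same order. The genes had been chosen on arrays that include these 4, so these values are no separate check. Golm1 had intensities of 1936, 2013 and 2437 in BPH and of 2602, 3606 and 2676 in BPL, so its spread was smaller than that of Kng1.

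**Figure D3:**
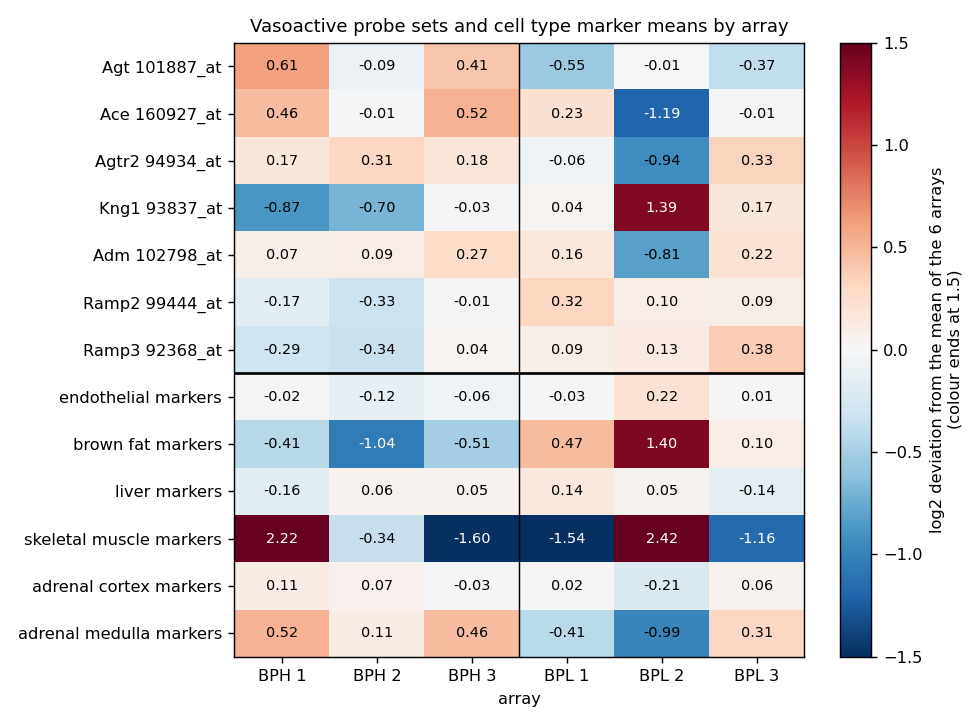
Log2 deviation of each array (columns) from the mean of the 6 arrays, for 7 probe sets above the line and for the mean of 6 cell type marker lists below it. BPL 2 stands at 1.39 for Kng1, -0.94 for Agtr2, -0.81 for Adm and -1.19 for Ace, with 1.40 for brown fat and -0.99 for medulla markers.

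Adm encodes adrenomedullin. Its intensities were 1017, 1033 and 1168 in BPH and 1079, 552 and 1124 in BPL. BPL 1 and BPL 3 lay within the BPH range, and BPL 2 stood well below the rest. The means were 1073 ± 83.0 in BPH and 918 ± 318 in BPL (SD, n = 3 each), at percentiles of 35.9 to 51.1. BPH differed from BPL by a log2 value of 0.29 (SE 0.31, 95% interval -0.42 to 1.00, limma adjusted p = 0.642). It was 0.42 within station 1 and with the station as a block, and it turned to -0.040 without BPL 2. That array was the lowest in medulla markers and the highest in skeletal muscle and brown fat markers. The part of any of these tissues in the Adm values was not tested.

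Ramp2 and Ramp3 encode the RAMP proteins that make the calcitonin receptor-like receptor respond to adrenomedullin. Ramp2 had intensities of 2555, 2303 and 2861 in BPH and of 3604, 3095 and 3071 in BPL. All 3 BPH arrays lay below all BPL arrays, by a margin smaller than the range within either strain. The means were 2573 ± 279 in BPH and 3257 ± 301 in BPL (SD, n = 3 each), at percentiles of 67.1 to 78.1. This made a log2 difference of -0.34 (SE 0.15, 95% interval -0.67 to -0.01, limma adjusted p = 0.243). It was not called, and was -0.18 within station 1 and with the station as a block.

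Ramp3 had intensities of 1373, 1333 and 1731 in BPH and of 1787, 1839 and 2188 in BPL. Again the BPH arrays lay below the BPL arrays, with BPH 3 close to BPL 1. The means were 1479 ± 219 in BPH and 1938 ± 218 in BPL (SD, n = 3 each), at percentiles of 54.3 to 66.8. The log2 difference was -0.39 (SE 0.18, 95% interval -0.81 to 0.02, limma adjusted p = 0.279), and it was -0.16 within station 1 and with the station as a block. In Kng1, Ramp2 and Ramp3 alike, BPH 3, the BPH array run on the same station as the BPL arrays, was the highest BPH array. It was so for Adm and the 3 Ace probe sets as well, but not for Agt or the brighter Agtr2 probe set. Among the BPH arrays of the dimmer Ace probe sets, only BPH 3 stood above the floor. The dimmer Agtr2 probe set, below the floor on all arrays, gives no order. The share over all tested probe sets was not counted, so nothing is concluded from these members. The part of the station in the Kng1, Ramp2 and Ramp3 values was not tested beyond the block, which left 1 BPH array to compare.

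With Kng1, Ramp2 and Ramp3, 3 of the 5 tested probe sets had BPH arrays wholly below the BPL arrays, as had 11.6% of all tested probe sets. For none of the 5 did the BPH arrays lie wholly above, as they did for 14.9% of all. The median difference of the 5 was -0.34, against 0.03 over all tested probe sets. Since 5 probe sets passed and none was called, these counts describe the arrays only.

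**Figure D4:**
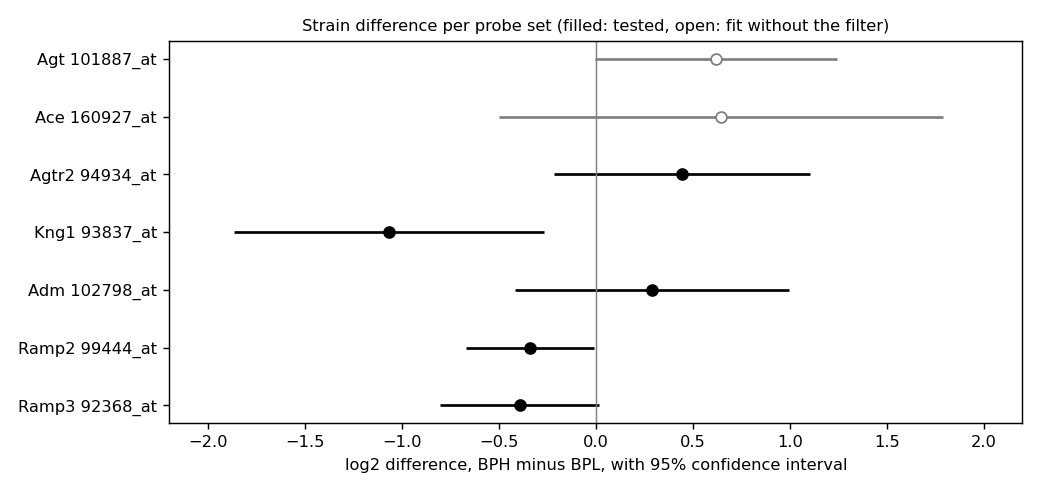
Log2 difference, BPH minus BPL, with its 95% confidence interval, for the 5 tested probe sets (filled) and for Agt and the brightest Ace probe set from the fit without the filter (open). The intervals of Kng1 and Ramp2 leave out 0, but no adjusted p is under 0.05.

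The receptor subunits work in blood vessel cells among others, and endothelial markers were set beside them. The 13 measured of 16 endothelial markers summed to between 42752 and 44410 in BPH and between 43436 and 48632 in BPL. Of their 16 tested probe sets none was called, 6 were positive and 10 negative, and the median was -0.10. The 2 with an unadjusted p under 0.05 belonged to the related endothelial receptor kinase genes Tie1 and Tek and had opposite signs, -0.70 for Tie1 (SE 0.24, limma adjusted p = 0.16) and 0.36 for Tek (SE 0.14, limma adjusted p = 0.213). The part of endothelial cells in the Ramp2 and Ramp3 values was not tested. The calcitonin receptor-like receptor gene Calcrl itself was under the filter and averaged 97.3 ± 71.6 in BPH and 124 ± 71.3 in BPL (SD, n = 3 each), both below the floor.

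The wider vasoactive pathways, in lists of 115 genes that include those above, had 83 genes with a probe set and 35 genes with a tested one. Of their 39 tested probe sets none was called in limma, 6 had an unadjusted p under 0.05, 20 were positive and 19 negative, and the median was 0.01. No list had a called gene in either direction.

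In the angiotensin list, with 9 genes tested, the median was 0.11. Agtrap, which encodes a protein that binds the type 1 receptor, averaged 3407 ± 774 in BPH and 4394 ± 588 in BPL (SD, n = 3 each), a log2 difference of -0.38 (SE 0.19). Mas1, which encodes the receptor for angiotensin 1-7, differed by 0.29 and Ctsa, a carboxypeptidase gene, by 0.24. The 2 probe sets of Enpep, the aminopeptidase that degrades angiotensin II, differed by -0.38 and 0.08 and so disagreed in sign. The adjusted p-values of these genes lay between 0.305 and 0.864 in limma.

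In the kinin list, with 5 genes tested, the median was -0.09. Cpe, a carboxypeptidase of neuroendocrine granules, averaged 63178 ± 8222 in BPH and 46025 ± 7117 in BPL (SD, n = 3 each) at its brighter probe set. The difference on the log2 scale was 0.46 (SE 0.16, limma adjusted p = 0.16), and the other Cpe probe set gave 0.42. Xpnpep1, an aminopeptidase that cleaves bradykinin, differed by -0.24 and Bdkrb1, the B1 bradykinin receptor gene, by 0.06. Klk1b1 differed by -0.76 (SE 0.46, limma adjusted p = 0.404), and near-identical kallikrein genes may share its signal.

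In the adrenomedullin list, with 7 genes tested, the median was 0.07. Ackr3, an atypical chemokine receptor that also binds adrenomedullin, averaged 8944 ± 1371 in BPH and 6968 ± 646 in BPL (SD, n = 3 each). BPH differed from BPL by a log2 value of 0.35 (SE 0.14, limma adjusted p = 0.225), opposite in sign to those of Ramp2 and Ramp3. Gpr182 differed by -0.31 at its tested probe set. Its other probe set, under the filter, gave 0.45 in the fit without the filter, so the signs disagreed. Ramp1, the RAMP of the CGRP receptor, differed by 0.08, and Crcp, a CGRP receptor component, by 0.07.

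**Figure D5:**
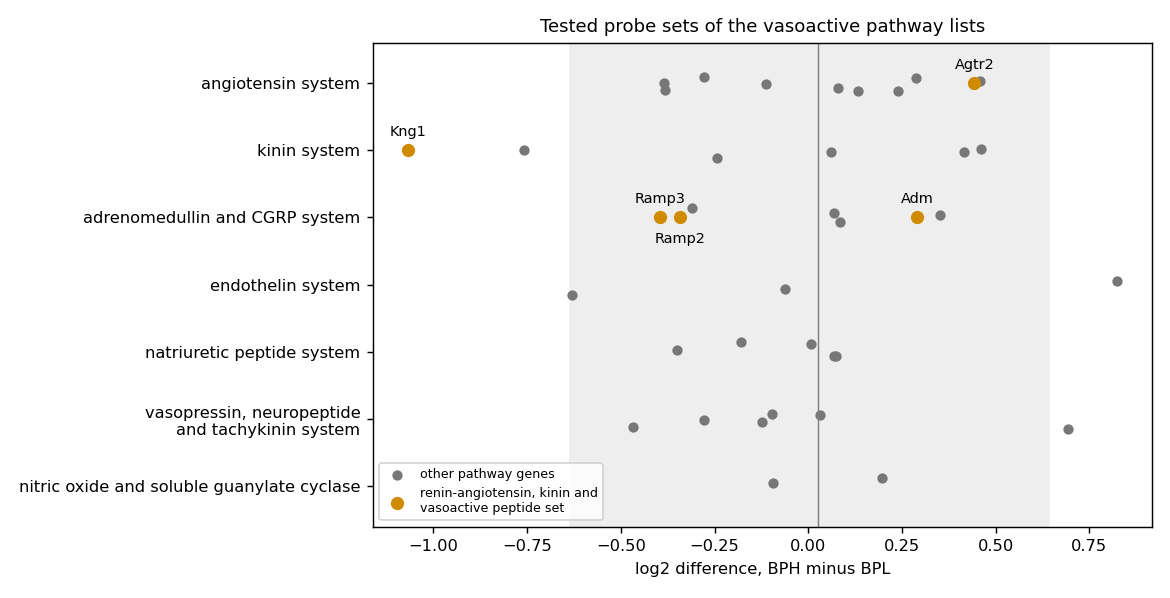
Log2 difference, BPH minus BPL, of each tested probe set in 7 vasoactive pathway lists, with Kng1, Ramp2, Ramp3, Agtr2 and Adm in orange and other genes in grey. The band spans the middle 90% of all tested probe sets, -0.64 to 0.64, and the vertical line their median of 0.03. Kng1 (-1.07), Klk1b1 (-0.76), Edn1 (0.82) and Npy (0.69) lie outside the band.

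The remaining lists had 3 genes tested for endothelin, 4 for natriuretic peptides, 5 for vasopressin, neuropeptides and tachykinins, and 2 for nitric oxide. Their medians were -0.06, 0.01, -0.11 and 0.05. The endothelin receptor gene Ednrb differed by -0.63 (SE 0.32, limma adjusted p = 0.323) and Ece1, which activates endothelin, by -0.06. Endothelin 1 (Edn1) differed by 0.82 (SE 0.54) at its tested probe set. Its other probe set, under the filter, gave -0.09 (SE 0.41) in the fit without the filter. Among natriuretic peptide genes, the clearance receptor gene Npr3 differed by -0.35 and 0.01 at its 2 tested probe sets. The convertase gene Furin differed by -0.18, and both hormone genes Nppa and Nppb by 0.07.

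Uts2r, which encodes the receptor for the vasoconstrictor urotensin, averaged 1305 ± 182 in BPH and 1797 ± 106 in BPL (SD, n = 3 each). Its log2 difference was -0.47 (SE 0.18, limma adjusted p = 0.201). Apln, the apelin gene, differed by -0.28, Oxt, the oxytocin gene, by -0.12, and Npy, the neuropeptide Y gene, by 0.69 (SE 0.45, limma adjusted p = 0.428). Without BPL 3, Npy was the 1 gene of all these lists that passed, at 1.30 (SE 0.21, limma adjusted p = 0.0179). For nitric oxide, the guanylate cyclase subunit gene Gucy1b1 differed by 0.20 and Ddah2, which degrades an inhibitor of nitric oxide synthase, by -0.09.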

How the data were processed

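Adrenal RNA of BPH and BPL mice, with 3 arrays per strain, was measured on Affymetrix MG_U74Av2 arrays, per the file headers. Each deposited value is a linear intensity per probe set. The authors had scaled the arrays to a common level, as the values show, with trimmed means between 2501.3 and 2501.5. For the summary software, a name was not given in the sources used here. Array run files, per the file headers, hold other run information, of which the fluidics station was read. The deposited intensities were floored at 201.3 and taken to log2, and probe sets were filtered on the mean of these log2 values. Strains were compared with limma 3.58.1 (lmFit, eBayes, variance trend on; R 4.3.3) in two-sided tests, with Benjamini-Hochberg adjustment over 7293 probe sets. The 66 control probe sets were left out. The fit was tested on simulated data. A single gene was annotated to 10855 probe sets, of which 10839 matched RefSeq, while 396 had several genes and 1237 had no gene.

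Groups came from the titles. Genes and lists were chosen with earlier results of these data known. Named genes are all genes of the set, pathway genes that passed, up to 4 others per list by smallest p, and 3 by correlation. Alternatives changed the scaling, floor, filter, variance model, blocks, threshold and arrays. The number of arrays limits the precision.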

Additional observations from a re-analysis of the deposited data

How the results depend on the processing

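None of the 5 tested probe sets of these genes was called under any of the 19 alternatives run. Of these, the threshold of 0.01 could not add a call, and the filter at the 60th percentile left Adm out. Kng1, Ramp2, Ramp3 and Agtr2 kept their direction under all 18 alternatives of each, with differences from -1.32 to -0.47, -0.42 to -0.18, -0.51 to -0.16 and 0.09 to 0.72. The filter changes, variance models, lower floor and replicate block left these differences unchanged, so the direction could not turn there. The station block and station 1 alone gave the same difference as each other for each gene. Adm turned to -0.040 without BPL 2 and to -0.0033 without BPH 1 and BPL 2. Of all tested probe sets, 184 were called, 52 without the filter, 83 without the intensity trend, 18 with the station as a block, 7 within station 1 and 48 at an adjusted p under 0.01. Leaving out 1 array gave from 42 (BPH 2) to 361 (BPL 3), with 83 for BPH 1, 49 for BPH 3 and 94 for BPL 1. For the vasoactive lists that range was 0 to 1 genes called, the 1 being Npy without BPL 3. The labels do not say whether same-numbered arrays were paired. Deviations of same-numbered arrays correlated at -0.22, -0.08 and 0.01, which with 3 arrays per strain cannot settle it. With the replicate block 124 probe sets were called, none of them of these genes, and Kng1 had an adjusted p of 0.14. Agt ran from 0.47 to 0.82 and the brightest Ace probe set from 0.21 to 0.92 when 1 array was left out without the filter, an alternative chosen after seeing the data. Values near the floor limit what Agt and Ace can show.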

Other observations

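Of the vasoactive pathway probe sets, 63 stood under the filter. In the fit without it none was called and 3 of the 63 had an unadjusted p under 0.05 in limma, against 13.6% of all 12422 probe sets. That share includes the brighter probe sets that passed the filter, so it is not a like reference, and the shares were not compared further. They are named here after their values were seen. Adcyap1, which encodes the neuropeptide PACAP that acts on chromaffin cells, had intensities of 122, 91.1 and 119 in BPH and of 339, 424 and 431 in BPL. All 3 BPH arrays lay below the floor of 201.3 and all BPL arrays above it, so the log2 difference of -0.98 understates the gap. Its SE of 0.10 and limma adjusted p = 0.0545 rest on a BPH group that the floor leaves with no spread, and they are no measure of precision. Edn3, which encodes endothelin 3, had 622, 478 and 533 in BPH and 235, 176 and 352 in BPL, a log2 difference of 1.08 (SE 0.24, limma adjusted p = 0.208), which the floor understates since BPL 2 lay under it. Avpr1a, a vasopressin receptor gene, had 239.7, 391 and 271 in BPH and 203, 178 and 26.7 in BPL at 1 of its probe sets, a log2 difference of 0.54 (SE 0.19, limma adjusted p = 0.339). There BPL 2 and BPL 3 lay under the floor and BPL 1 just above it, so the difference is understated and its SE too small. The brighter Avpr1a probe set had 419.8, 523 and 592 in BPH and 482, 707 and 170.3 in BPL, which overlap, with a log2 difference of 0.31 (SE 0.51, limma adjusted p = 0.861) that turned to -0.20 without BPL 3.

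A further probe set is annotated to both Ramp2 and Vps25 and was therefore left out of the set. It had 4181, 3311 and 3123 in BPH and 3681, 4175 and 3616 in BPL, which overlap. Its log2 difference of -0.12 (SE 0.15, 95% interval -0.46 to 0.22, limma adjusted p = 0.702) has the sign of the Ramp2 probe set at a smaller size.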
